A study of Danio rerio with 6 samples.

Results

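The genes of muscle excitation and calcium release carry the electrical signal of a muscle fibre to its internal calcium store. The group was set by name as ryr1a, ryr1b, ryr3, atp2a1, atp2a1l, casq1a, casq1b, cacna1sa, cacna1sb and stac3. All 10 names were matched to 10 of the 32520 genes in the table. The symbols paired with the gene identifiers lack the paralog letter for RYR1, CASQ1 and CACNA1S, so each of these symbols stands for a pair of genes that are told apart here by identifier, and which of them is the a or the b paralog is not given. All 10 genes were tested.

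The samples were RNA from GFP-positive cells sorted from dissociated zebrafish of the sp7-eGFP line, in which green fluorescent protein is driven by sp7, a transcription factor gene of osteoblasts. Both groups carried the transgene and were taken at 4 days post fertilization (dpf), with 400 embryos named for each arm. The exposed group (3 libraries) had been kept from 24 hours post fertilization (hpf) in 200 nM bisphenol A (BPA), a plastics monomer with estrogenic activity, and the control group (3 libraries) had not. The stocks were made in dimethyl sulfoxide, and what the control medium held is not stated. The labels are also silent on whether replicate libraries stem from different batches of embryos, so the p values may measure technical spread only.

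In skeletal muscle an action potential runs into the transverse tubules, where the L-type calcium channel built around CACNA1S acts as the voltage sensor. The sensor opens the ryanodine receptor RYR1 in the membrane of the sarcoplasmic reticulum, with STAC3 as an adaptor that this coupling needs. Calsequestrin (CASQ1) holds calcium inside the reticulum, and the SERCA1 pump (atp2a1 and atp2a1l) returns calcium to it so that the fibre relaxes. In zebrafish the paralogs of RYR1 and of CACNA1S are known to divide between slow and fast fibres, and ryr3 is known as a further release channel of fish muscle.

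Levels are given as CPM (counts scaled by TMM library sizes), changes as the log2 fold change of exposed against control with its standard error (SE), and p values are those of edgeR's quasi-likelihood test adjusted by Benjamini-Hochberg over all 21194 genes that were tested; a gene passed below 0.05. With this scaling all 10 genes rose in the exposed libraries, while 6 were higher and 1 lower when libraries were scaled on sarcomere genes. For all 10 the lowest exposed value lay above the highest control value. Over all genes tested 38.8% passed the threshold, 20.1% higher and 18.7% lower in the exposed libraries. The groups did not overlap for 48.4% of genes, 25.2% with all exposed values above and 23.2% with all exposed values below the controls. The median log2 fold change of the 10 genes was 1.12, against -0.00 over all genes tested. Of the 10 genes 5 both passed the threshold and rose at least 2-fold, and 5.59% of all genes tested did both. The 10 genes were chosen with earlier results of these data known, so these contrasts with all genes only describe these libraries. Counts in the 10 genes were between 0.417% and 0.42% of each control library and between 0.588% and 0.598% of each exposed library; atp2a1 gave most of them, and without it the shares were 0.0803% to 0.0819% and 0.113% to 0.114%. In bulk samples, more muscle cells and more of these transcripts per cell cannot be told apart.

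The cells were labelled as osteoblasts, and transcripts of skeletal muscle were abundant in every library. The summed level of 35 sarcomere markers (actins, myosins, troponins, titin and others) was 25726 to 26894 CPM in the control and 34026 to 34688 CPM in the exposed libraries. The summed level of 19 osteoblast markers was 10984 to 11255 and 13251 to 13364 CPM. Of the 17 that were tested, 5 were higher, 5 lower and 7 not past the threshold (median log2 fold change -0.03). Over all genes tested 20.1% were higher and 18.7% lower. SP7 itself was at 6.87 ± 1.55 CPM (SD, n = 3) in the control and 8.49 ± 0.355 CPM (SD, n = 3) after exposure (adjusted p = 0.175). No library held a count of bglap, the osteocalcin gene (0 counts), which at 3 counts allows up to between 0.0684 and 0.0976 CPM. This limit would be higher if both reads of a pair were counted, which is possible here. Library totals ran from 30748435 to 43403568 counts.

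**Figure D1:**
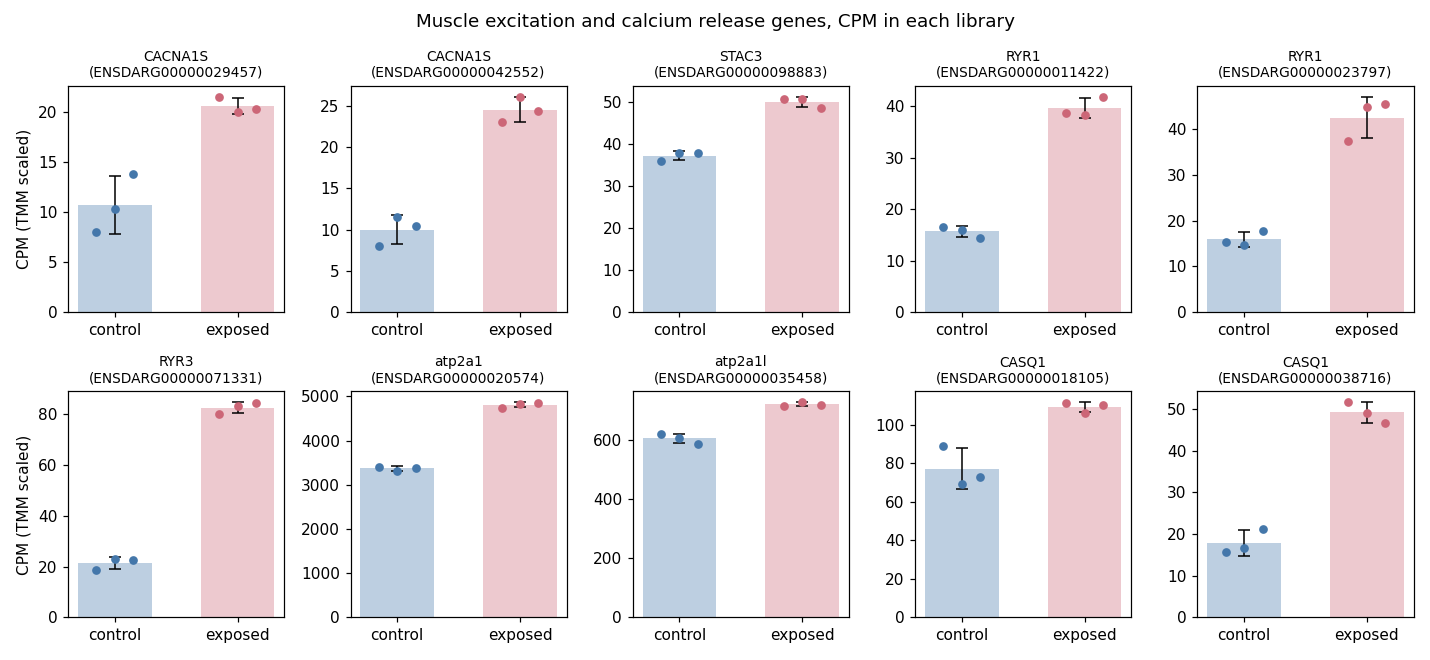
CPM of each of the 10 genes in the control (blue) and exposed (red) libraries. Points are libraries, bars are means and error bars the SD over 3 libraries; each panel has its own vertical axis, from 0. In every panel the exposed points lie above all control points, and RYR3 rose 3.84-fold.

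Both genes of the voltage sensor rose. CACNA1S (ENSDARG00000042552), the pore and voltage-sensing subunit of the muscle L-type channel, was at 8.06, 11.5 and 10.5 CPM in the control and 23.1, 26.1 and 24.4 CPM in the exposed libraries. The lowest exposed value was thus well above the highest control value. Its log2 fold change was 1.29 ± 0.16 SE, a 2.44-fold increase (adjusted p = 4.65e-10). The other CACNA1S gene (ENSDARG00000029457) was at 8.0, 10.3 and 13.8 CPM in the control and 21.5, 20.0 and 20.3 CPM in the exposed libraries. Its control libraries spread more than those of any other of the 10 genes, with a coefficient of variation of 27.1%, while the exposed libraries lay close together at 3.91%. It rose by 0.95 ± 0.23 on the log2 scale (adjusted p = 1.59e-06), and by 0.78 to 1.16 when any 1 library was left out. STAC3, the adaptor between channel and receptor, was at 36.0, 37.9 and 37.9 CPM in the control and 50.7, 50.8 and 48.7 CPM in the exposed libraries. The replicates of STAC3 were tight, so that its 1.34-fold increase passed the test (log2 fold change 0.43 ± 0.03 SE, adjusted p = 5.85e-06).

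The ryanodine receptors, the release channels of the reticulum, rose 2.52-fold to 3.84-fold. RYR1 (ENSDARG00000011422) was at 16.6, 16.0 and 14.4 CPM in the control and 38.6, 38.3 and 41.8 CPM in the exposed libraries, and its log2 fold change was 1.33 ± 0.07 SE (adjusted p = 1.89e-13). The other RYR1 gene (ENSDARG00000023797) was at 15.3, 14.6 and 17.8 CPM against 37.3, 44.8 and 45.4 CPM, with a log2 fold change of 1.42 ± 0.13 SE (adjusted p = 2.07e-13). Control library 3 was the lowest control for the first gene and the highest for the second. RYR3, a release channel that is not itself coupled to the voltage sensor, was at 18.8, 23.0 and 22.6 CPM in the control and 80.0, 83.0 and 84.2 CPM in the exposed libraries. Every exposed library held more than 3 times the level of any control library. Its log2 fold change of 1.94 ± 0.10 SE was the largest of the 10 genes (adjusted p = 2.26e-19), and 1.59% of all genes tested had a larger one. For ryr2a and ryr2b only 1 gene was matched, named RYR2 without a paralog letter, so which of them it is is not given. It was not tested, with counts of only 6, 34 and 8 among controls and 6, 6 and 0 after exposure.

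The calcium pump and store genes rose 1.19-fold to 1.43-fold, except for 1 calsequestrin gene that rose 2.76-fold. The SERCA1 gene atp2a1 was at 3412, 3310 and 3389 CPM in the control and 4744, 4836 and 4852 CPM in the exposed libraries. Its replicates differed by at most 1.03-fold, and the 1.43-fold increase passed the test (log2 fold change 0.51 ± 0.02 SE, adjusted p = 1.78e-16). Its paralog atp2a1l was at 622, 608 and 589 CPM against 715, 729 and 721 CPM, the smallest change of the 10 genes (log2 fold change 0.25 ± 0.02 SE, adjusted p = 1.78e-07). CASQ1 (ENSDARG00000018105), a calsequestrin gene, was at 89.1, 69.3 and 72.7 CPM in the control and 111, 106 and 110 CPM in the exposed libraries. Control library 1 stood above the other two for this gene, and the increase was 0.43 to 0.62 on the log2 scale when any 1 library was left out (0.50 ± 0.11 SE with all, adjusted p = 2.34e-07). The other CASQ1 gene (ENSDARG00000038716) was at 15.6, 16.6 and 21.3 CPM in the control and 51.6, 49.1 and 46.7 CPM in the exposed libraries. No exposed library was within reach of the controls for that gene, with a log2 fold change of 1.46 ± 0.14 SE (adjusted p = 7.79e-14).

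The changes were ordered by size and each gene was compared with the next. The order comes from these same values and no test was run on it, so the gaps only describe these libraries. RYR3 stood first, and its log2 change exceeded that of the next gene, CASQ1 (ENSDARG00000038716), by 0.47 ± 0.13 SE, with no overlap between the groups in the ratio of the pair. The genes from CASQ1 (ENSDARG00000038716) through both RYR1 genes to both CACNA1S genes followed. Each neighbouring pair among them overlapped in its ratio, with differences of 0.03 to 0.32 (0.32 ± 0.19 SE between the CACNA1S genes). CACNA1S (ENSDARG00000029457) exceeded atp2a1 by 0.47 ± 0.23 SE, with no overlap in the ratio. Among atp2a1, CASQ1 (ENSDARG00000018105) and STAC3, neighbouring genes did not differ from each other beyond the spread of the libraries (0.01 ± 0.10 SE and 0.08 ± 0.14 SE). STAC3 exceeded atp2a1l by 0.17 ± 0.05 SE, again with no overlap in the ratio.

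Related genes were then compared within each library, since a ratio of counts in 1 library does not depend on how libraries are scaled. Gene length differs between the genes of a pair, so only the change of a ratio is read, not its level. With 3 against 3 libraries the two-sided exact permutation test cannot give a p under 0.1, and over the 5 ratios compared the smallest adjusted p was 0.167. The CASQ1 ratio, ENSDARG00000038716 over ENSDARG00000018105, was 0.176, 0.239 and 0.293 in the control and 0.467, 0.461 and 0.426 after exposure. The ratio shifted 1.95-fold without overlap between the groups (log2 difference 0.97 ± 0.22 SE, exact permutation p = 0.1, adjusted p = 0.167). The ratio of RYR3 to the summed RYR1 genes was 0.589, 0.75 and 0.704 against 1.05, 0.998 and 0.965, also without overlap (log2 difference 0.57 ± 0.11 SE, exact permutation p = 0.1, adjusted p = 0.167). The ratio of atp2a1l to atp2a1 was 0.182, 0.184 and 0.174 against 0.151, 0.151 and 0.149, lower in every exposed library (log2 difference -0.26 ± 0.03 SE, exact permutation p = 0.1, adjusted p = 0.167).

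The groups overlapped for the remaining pairs. The RYR1 ratio, ENSDARG00000023797 over ENSDARG00000011422, was 0.922, 0.911 and 1.24 in the control and 0.965, 1.17 and 1.09 after exposure (log2 difference 0.08 ± 0.17 SE, exact permutation p = 0.7, adjusted p = 0.7). The CACNA1S ratio, ENSDARG00000042552 over ENSDARG00000029457, was 1.01, 1.12 and 0.761 against 1.07, 1.3 and 1.2 (log2 difference 0.32 ± 0.19 SE, exact permutation p = 0.2, adjusted p = 0.25). Whether reads were shared between the genes of a pair is not stated, so the split between paralogs is uncertain.

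**Figure D2:**
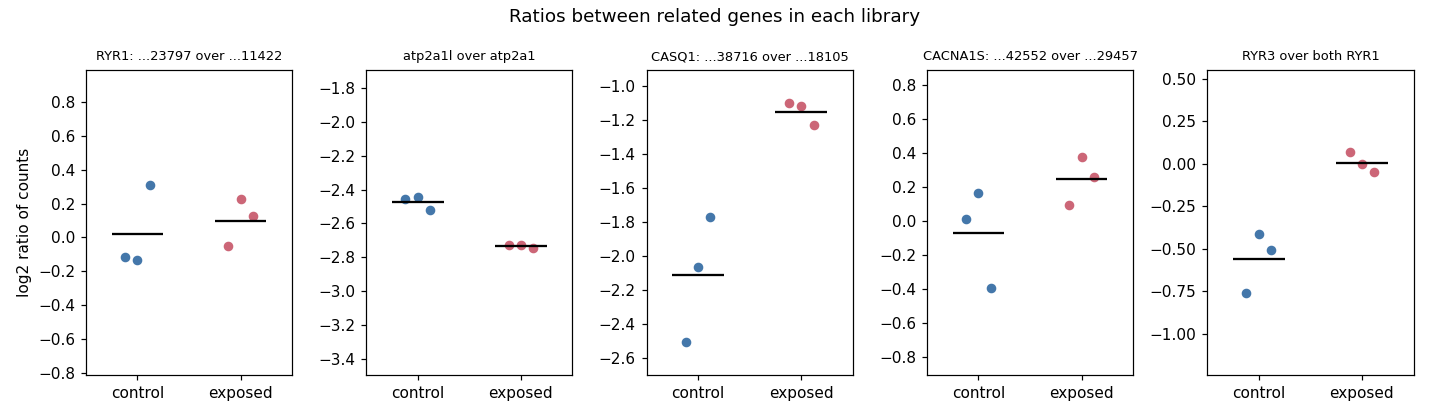
Log2 ratio of counts between related genes in each library (points; lines are group means), with the last 5 digits of the identifiers where a symbol is shared; all vertical axes span the same range. The CASQ1 ratio and the ratio of RYR3 to RYR1 are higher and the ratio of atp2a1l to atp2a1 is lower in all 3 exposed libraries, and the RYR1 and CACNA1S ratios overlap between the groups.

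Sarcomere genes were also higher in the exposed libraries, and the 10 genes were read against them. The 35 tested sarcomere genes split into 27 that rose, 5 that fell and 3 not past the threshold (median log2 fold change 0.56). The fast myosin heavy chain genes myhz1.3 and myhz1.2 rose (166 to 545 CPM for the former, 396 to 1003 CPM for the latter), whereas 2 of the troponin I genes named TNNI2 fell, ENSDARG00000045592 from 92.5 to 21.6 CPM and ENSDARG00000035958 from 140 to 53.4 CPM. An edgeR fit added after the data were seen scaled the libraries on the median ratio of these sarcomere genes, which moved the median log2 fold change of all genes tested to -0.51 and gave 1258 genes higher and 11257 lower, against 4255 and 3958 with TMM. Under that scaling 6 of the 10 genes were higher, 1 was lower and 3 did not pass. Of the 35 sarcomere genes themselves 16 were higher and 16 lower, so a rise against their median was not particular to the 10 genes. RYR3 was higher by 1.44 on the log2 scale (adjusted p = 1.22e-15), the RYR1 genes by 0.92 and 0.83 (adjusted p = 4.36e-09 for ENSDARG00000023797 and 5.01e-09 for ENSDARG00000011422) and CASQ1 (ENSDARG00000038716) by 0.96 (adjusted p = 2.65e-09).

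The voltage sensor genes kept the same direction relative to the median of the sarcomere genes. CACNA1S ENSDARG00000042552 was higher by 0.78 (adjusted p = 3.50e-06) and ENSDARG00000029457 by 0.44 (adjusted p = 0.0107). For the other 4 genes the call depended on the scaling. The log2 change of atp2a1 was 0.01 (adjusted p = 0.857), that of CASQ1 (ENSDARG00000018105) -0.00 (adjusted p = 0.979) and that of STAC3 -0.08 (adjusted p = 0.387), while atp2a1l was lower by 0.25 (log2 fold change -0.25, adjusted p = 7.10e-06).

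**Figure D3:**
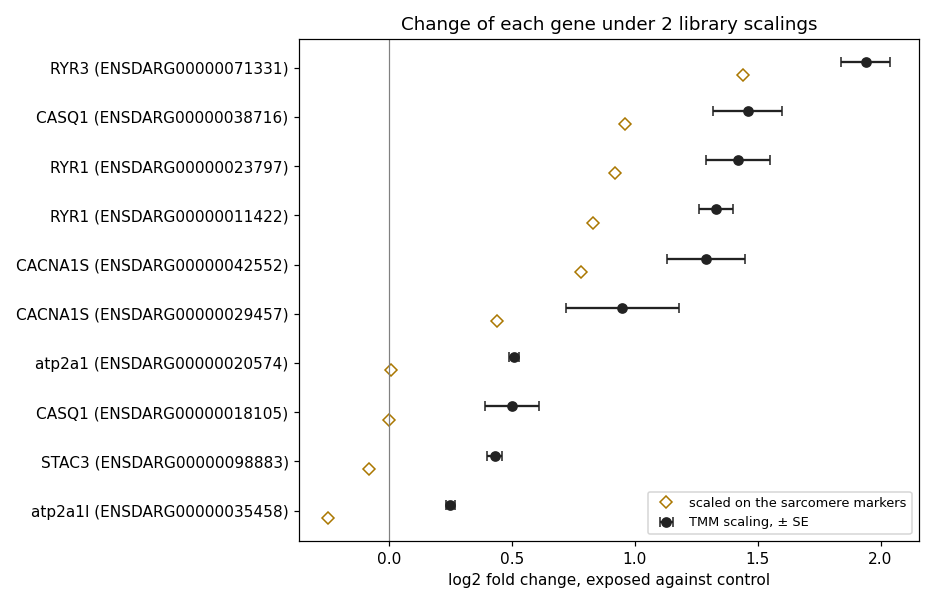
Log2 fold change of each of the 10 genes, exposed against control, with TMM scaling (filled circles, ± SE) and with libraries scaled on the sarcomere markers (open diamonds). RYR3, both RYR1, both CACNA1S and 1 CASQ1 gene stay to the right of 0 under both scalings, and atp2a1, the other CASQ1 gene and STAC3 lie near 0 and atp2a1l below it under the second.

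With TMM scaling, partners of the 10 genes at the junction between tubule and reticulum rose more often than they fell. Among 29 tested triad and channel partners there were 13 increases, 2 decreases and 14 genes not past the threshold (median log2 fold change 0.27). The shares over all genes tested, 20.1% higher and 18.7% lower, stand beside this list and those that follow. Among genes of calcium channel subunits, cacna2d1a rose from 10.4 to 17.5 CPM (adjusted p = 7.57e-06). The gamma family genes cacng6a and cacng6b rose from 10.7 to 17.3 CPM (adjusted p = 4.48e-05) and from 2.28 to 4.12 CPM (adjusted p = 0.00875). Whether their products join CACNA1S in the muscle channel is not known from these data. The beta subunit gene CACNB1, which channel assembly needs, stood at 7.14 CPM without and 7.35 CPM with exposure (adjusted p = 0.874). The gamma subunit gene CACNG1 (ENSDARG00000008772) was at 15.5 and 17.7 CPM (adjusted p = 0.168). CACNA2D1 (ENSDARG00000073752) was at 1.06 and 1.14 CPM (adjusted p = 0.879), and STAC, a relative of STAC3, at 0.620 and 0.417 CPM (adjusted p = 0.572). Junctophilins tether the tubule to the reticulum, and JPH1 (ENSDARG00000058603) rose from 3.17 to 6.41 CPM (adjusted p = 0.00263); spega, a kinase gene of the triad, rose from 1.99 to 4.13 CPM (adjusted p = 0.00308). The 2 decreases were fkbp1aa, from 551 to 429 CPM (adjusted p = 8.39e-10), and ASPH (ENSDARG00000078703), from 18.8 to 12.8 CPM (adjusted p = 1.76e-04). Both were added after their values were seen. With libraries scaled on the sarcomere genes, 1 of these 29 genes was higher, JPH1 (ENSDARG00000038826, log2 fold change 0.22, adjusted p = 0.00647), and 12 were lower. Of all 21194 genes tested 1258 were higher and 11257 lower with that scaling.

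Genes of calcium uptake, storage and buffering went both ways, with 8 of 17 higher, 6 lower and 3 not past (median log2 fold change 0.17). Other SERCA genes are atp2a2a, ATP2A2 and ATP2A3. The first rose from 69.7 to 120 CPM (adjusted p = 1.28e-13) and ATP2A3 from 34.1 to 56.5 CPM (adjusted p = 8.57e-10), while ATP2A2 was at 96.8 and 98.2 CPM (adjusted p = 0.761). CASQ2, the calsequestrin gene first known from heart, rose from 114 to 142 CPM (adjusted p = 1.45e-05). The histidine-rich calcium binding protein gene hrc, whose product lies inside the reticulum, rose from 78.2 to 136 CPM (adjusted p = 1.74e-13). MCU, the calcium channel of mitochondria, rose from 3.07 to 6.85 CPM (adjusted p = 1.68e-04). Parvalbumins, which buffer calcium in the cytosol of fast fibres, went both ways. The genes pvalb3 and pvalb5 fell from 13.6 to 6.31 CPM (adjusted p = 2.80e-07) and from 17.0 to 8.52 CPM (adjusted p = 1.88e-07), and pvalb1 fell by 0.10 on the log2 scale from 8742 to 8172 CPM (adjusted p = 0.00312). By contrast pvalb4 rose from 699 to 1123 CPM (adjusted p = 3.27e-16) and pvalb2 from 5718 to 6182 CPM (adjusted p = 0.00190), a rise that turned to a log2 fold change of -0.39 when scaled on the sarcomere genes (adjusted p = 1.31e-09). The last 3 were added after their values were seen, to complete the family. The remaining decreases, also added after their values were seen, were in CALR, calr3a and 1 SRL gene. CALR fell from 65.4 to 42.1 CPM (adjusted p = 2.06e-09) and calr3a from 169 to 127 CPM (adjusted p = 1.11e-08). SRL (ENSDARG00000104587) fell from 263 to 241 CPM (adjusted p = 0.00846). The other SRL gene (ENSDARG00000112959) rose from 51.3 to 72.4 CPM (adjusted p = 1.14e-07), and calr3b did not pass (adjusted p = 0.0645). Scaled on the sarcomere genes, 5 of the 17 were higher and 10 lower, against 1258 higher and 11257 lower of all 21194 genes tested. The genes atp2a2a (log2 fold change 0.28), ATP2A3 (0.23), hrc (0.30) and MCU (0.66) were among the higher. CASQ2 turned lower (log2 fold change -0.19, adjusted p = 0.00462).

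Genes that bring excitation to the fibre surface were higher in 9 of 19 cases, lower in 2 and not past in 8 (median log2 fold change 0.40). Both genes of the muscle chloride channel CLCN1, which steadies the resting membrane, rose, ENSDARG00000062084 from 2.60 to 6.16 CPM (adjusted p = 1.36e-04) and ENSDARG00000012269 from 1.45 to 3.26 CPM (adjusted p = 0.00710). RAPSN, which clusters acetylcholine receptors, rose from 5.30 to 9.92 CPM (adjusted p = 4.45e-05). CHRNG, the receptor subunit of embryonic muscle in mammals, fell from 13.5 to 6.46 CPM (adjusted p = 1.56e-06). Scaled on the sarcomere genes, 3 of these 19 genes were higher and 6 lower, against 1258 higher and 11257 lower of all 21194 genes tested. RAPSN (log2 fold change 0.40) and CLCN1 (ENSDARG00000062084, 0.74) stayed higher, and CLCN1 (ENSDARG00000012269, 0.66) did not pass (adjusted p = 0.0948).

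Myogenic regulators were mixed, with 4 of 16 higher, 5 lower and 7 not past (median log2 fold change -0.06). Over all genes tested 20.1% were higher and 18.7% lower. MYMK, whose product fuses myoblasts, fell from 14.6 to 6.27 CPM (adjusted p = 3.77e-08), MYOG, the myogenin gene of muscle differentiation, from 15.3 to 7.75 CPM (adjusted p = 5.99e-07) and PAX3 (ENSDARG00000010192), a progenitor gene, from 6.40 to 3.71 CPM (adjusted p = 0.00401). MYF6, a myogenic factor gene of later muscle, rose from 2.82 to 5.05 CPM (adjusted p = 0.00471). Scaled on the sarcomere genes, MYF6 did not pass (log2 fold change 0.34, adjusted p = 0.218). With that scaling 9 of the 16 regulators were lower, MYMK (log2 fold change -1.72) and MYOG (-1.48) among them. This was near the share over all genes, of which 11257 of 21194 were lower.

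**Figure D4:**
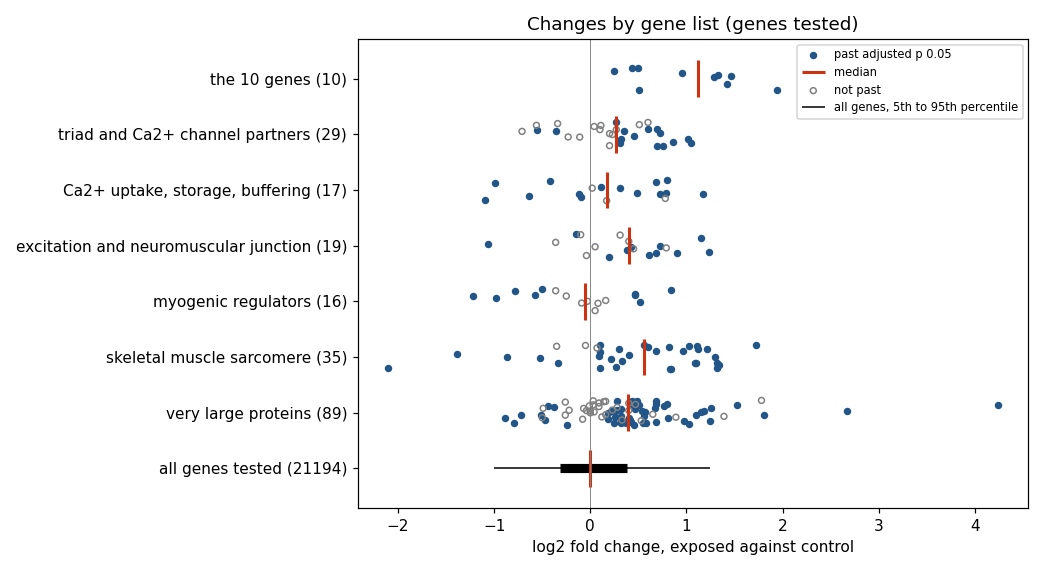
Log2 fold change of each tested gene, exposed against control with TMM scaling, by gene list (filled, past the threshold; open, not past; red bars, medians), above the 5th to 95th percentile (thin line) and 25th to 75th percentile (thick line) of all genes tested. The 10 genes lie wholly to the right of 0, and every other list shown has genes on both sides.

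Ryanodine receptors, titin and nebulin are among the largest proteins of the cell, and CACNA1S is a long protein too. The transcripts of other very large proteins were therefore looked at, in a list made after the data were seen. For very large proteins outside the sarcomere 50 of 89 tested genes rose, 8 fell and 31 were not past the threshold (median log2 fold change 0.39). The plectin gene pleca rose from 75.9 to 162 CPM and the atypical cadherin gene FAT2 from 15.2 to 43.7 CPM; the dystrophin gene dmd was at 29.9 and 32.3 CPM (adjusted p = 0.322) and LRP2 fell from 8.07 to 4.35 CPM. Within the sarcomere list the genes of the giant proteins NEB (84.8 to 212 CPM, log2 fold change 1.32) and TTN (ENSDARG00000028213, 67.0 to 145 CPM, 1.11) stood beside those of the small proteins TNNC2 (1259 to 1350 CPM, 0.10) and MYL1 (ENSDARG00000017441, 4029 to 4324 CPM, 0.10). Other genes of small sarcomere proteins rose by more, among them ACTA1 (ENSDARG00000055618, 507 to 901 CPM, 0.83; ENSDARG00000036371, 266 to 391 CPM, 0.56) and TNNI2 (ENSDARG00000029995, 142 to 276 CPM, 0.96). The examples named here from both lists were chosen after their values were seen, and not strictly by the size of the change. The CASQ1 genes encode much smaller proteins than the receptors, and they differed in their changes. The log2 change of ENSDARG00000038716 was 0.06 ± 0.15 SE above that of RYR1 (ENSDARG00000023797), a difference within the spread of the libraries. The other CASQ1 gene, ENSDARG00000018105, changed by 0.50, against 1.42 for that RYR1 gene. The part of transcript length or RNA quality in the changes was not tested.

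Markers of other cell types and of handling moved as well. Epidermal markers summed to 13610 to 14187 CPM in the control and 30659 to 31292 CPM in the exposed libraries (13 of 15 higher, 1 lower), and leukocyte markers to 240 to 250 and 398 to 413 CPM (17 of 22 higher, 1 lower). Immediate early and dissociation stress genes summed to 1818 to 1910 and 2489 to 2550 CPM (15 of 21 higher, 3 lower). Neuron markers, of a cell type that also uses ryanodine receptors, summed to 388 to 392 and 333 to 343 CPM (6 of 14 lower, 8 not past). Cardiac markers summed to 633 to 671 and 574 to 592 CPM (1 of 11 higher, 5 lower), smooth muscle markers to 373 to 379 and 391 to 410 CPM (3 of 11 higher, 2 lower) and chondrocyte markers to 1681 to 1732 and 1321 to 1372 CPM (1 of 18 higher, 12 lower). Among the markers of these lists, 1 leukocyte gene named MPEG1 (ENSDARG00000078569) was at 0 in every library. Osteoblast markers were higher in 5 of 17 cases, lower in 5 and not past in 7. Their part in the changes of the 10 genes was not tested.

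The typical profile of the 10 genes, as the median centred log2 CPM, was -0.67, -0.47 and -0.40 in the control and 0.54, 0.53 and 0.56 after exposure. Among 8782 other genes with a mean of at least 10 CPM, the 5 nearest to this profile by Euclidean distance over the 6 libraries were GRHL1 (distance 0.0985 on the log2 scale), JDP2 (0.111), pleca (0.117), MYOM1 (ENSDARG00000061249; 0.131) and GCM2 (0.147). MYOM1 encodes myomesin, a protein of the sarcomere's M band, and rose from 85.7 ± 10.8 to 183 ± 4.39 CPM (SD, n = 3). GRHL1 encodes a transcription factor of epithelia, at 29.2 ± 1.91 and 61.9 ± 1.31 CPM (SD, n = 3), JDP2 a transcription factor of the AP-1 family, and GCM2 a transcription factor known from the parathyroid and, in zebrafish, from skin ionocytes. All 5 were higher in every exposed library, which nearness to this profile largely fixes.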

How the data were processed

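The authors deposited raw read counts per Ensembl gene, 1 column per library, not normalized. The submitters' processing notes name build GRCz11, featureCounts 2.0.6, STAR 2.7.10a, FastQC and R 4.4.2; options, strand setting and annotation release are not given in the sources used here. Of the nonzero counts 76.1% to 81.7% were even in each library, and pairs may thus have been counted by mate. The floors of 3 counts cover counting error only, and they would be too low if pairs were counted by mate. SDs and SEs measure the spread between the libraries of a group.

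Counts were tested with edgeR 4.0.16 (R 4.3.3, limma 3.58.1): filterByExpr (minimum count 10, total 15), TMM, robust quasi-likelihood F-test without covariates, and Benjamini-Hochberg adjustment over all genes. SEs come from the SDs of log2 CPM in the groups (prior count 2). The fits were run on simulated counts in which few genes changed, equally often up and down. That setting does not test the scaling where many genes change, as in these libraries. Alternatives were RLE scaling, other count filters, halved counts, a replicate block, each library left out, DESeq2 1.42.0 and limma-voom; scaling on the sarcomere genes was added later. Ratios used scipy 1.17.1.

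Symbols covered 29201 of 32520 genes. Of the symbols on the lists 160 matched directly, 74 without a paralog letter, 7 without another suffix, 7 by synonym and 11 not at all; of 70 symbols of very large proteins 68 matched. The 10 genes, the lists and the tests were chosen with earlier results of these data known. The genes named from a list are up to 4 called genes of at least 1 CPM with the largest change, and relatives of the 10 genes whatever their value; others are named as chosen later. For the pattern search, genes with clone names were left out. A gene of the list of very large proteins is not reported here, though its count includes it.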

Additional observations from a re-analysis of the deposited data

How the results depend on the processing

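All 10 genes were called higher with RLE scaling, no filter, a filter of 1 CPM in 3 libraries, DESeq2, limma-voom, halved counts, the replicate block and without any 1 library. Over all alternatives, 136 of 140 values of the 10 genes kept their direction and side of the threshold. The other 4 came from scaling on the sarcomere genes, which called 6 of the 10 genes higher and 1 lower (all genes: 1258 higher, 11257 lower). There atp2a1 no longer passed (0.01), and the signs of atp2a1l (-0.25), CASQ1 ENSDARG00000018105 (-0.00) and STAC3 (-0.08) turned. That scaling sets the middle of the sarcomere genes, most of which were higher with TMM, near 0 by construction. Of these 35 genes 16 were still called higher and 16 lower. Without any 1 library 3484 to 4240 genes were called higher and 3215 to 3823 lower. With any 1 library left out, the log2 difference of the CASQ1 ratio was 0.77 to 1.14. That of RYR3 over both RYR1 genes was 0.47 to 0.64 and that of atp2a1l over atp2a1 -0.29 to -0.25. The CACNA1S ratio gave 0.16 to 0.44 and the RYR1 ratio 0.0 to 0.22. With 0.5 count added the CASQ1 ratio gave 0.96, and the other ratios kept their values.

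No sign was seen that the replicate numbers pair the samples. Correlations of deviations between same-numbered libraries were -0.01, -0.00 and 0.01, and only the libraries numbered 3 matched their own number best, with values near 0 throughout. The correlations ran over all genes tested, those of low counts included, so they cannot exclude a shared batch. With the number as a block, 4282 genes were higher and 3882 lower, and no call of the 10 genes changed. No genome or protein table was at hand, so transcript length was not measured.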
